A study of Mus musculus with 20 samples.

Results

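The cytosolic ribosomal protein genes encode the protein parts of the ribosome outside mitochondria. They were taken as all genes of the array's annotation whose only symbol on a probe set was Rpl or Rps with a number (with a, x, y or l endings), or Rpsa, Rplp0, Rplp1 or Rplp2. The rule found 49 of 18193 genes: 21 of the small subunit, 20 of the large subunit, the stalk proteins Rplp0 and Rplp2, and 6 paralogues. A further 28 ribosomal protein genes, Rplp1 among them, lie only on probe sets with several symbols and are no members. Each gene was read from its brightest probe set over all arrays.

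Liver RNA of 20 mice was hybridised to Affymetrix arrays, 1 array per mouse, 5 mice per group. LPS was given to MCAD-/- and to wild type mice, and vehicle to MCAD-/- and to wild type mice, which makes 4 groups. MCAD is medium-chain acyl-CoA dehydrogenase, an enzyme of mitochondrial fatty acid oxidation encoded by Acadm. LPS, lipopolysaccharide, comes from the outer wall of bacteria and sets off inflammation; the dose was 100 µg per 20 g of body weight. All mice were males on a mixed BL6/SV129 background, aged 50 to 60 days, and all had fasted for 12 h after the injection. The labels do not say how the MCAD-/- allele was made or by which route the injection was given. The series describes the mice as biological replicates.

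A ribosome joins a small subunit, which reads the messenger RNA, to a large subunit, which forms peptide bonds. Most ribosomal proteins are needed in equal numbers, and in the liver their messages are abundant. In mammals these messages typically start with a C and a run of pyrimidines, the terminal oligopyrimidine (TOP) tract, through which the kinase complex mTORC1 and the protein Larp1 control their translation. Arrays measure the amount of message, not its translation.

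RefSeq promoter windows (GRCm38.p6, 250 bases before to 50 bases from the annotated start) were at hand for 43 of the 49 members. A start with C followed by at least 4 pyrimidines, read on the gene's strand, was found in 8 of the 43, or 18.6%, against 813 of 27025 genes in the table, or 3.01%. The 7 of these 8 genes that were bright enough to test are shown because they show what a TOP start looks like in genes that did and did not change with LPS. Each line holds 30 bases before the annotated start and 20 from it, 5′ to 3′ on the gene's strand, and capitals mark the unbroken pyrimidine tract from the start. Their places are chr7:141447621-141447670 (plus strand) for Rplp2, chr2:39005112-39005161 (minus) for Rpl35, chr17:27635225-27635274 (minus) for Rps10, chr11:114668550-114668599 (plus) for Rpl38, chr17:33955646-33955695 (minus) for Rps18, chr3:90213629-90213678 (minus) for Rps27 and chr4:86857348-86857397 (minus) for Rps6.
Rplp2: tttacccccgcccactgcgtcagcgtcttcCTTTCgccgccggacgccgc
Rpl35: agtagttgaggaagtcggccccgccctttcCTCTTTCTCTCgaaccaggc
Rps10: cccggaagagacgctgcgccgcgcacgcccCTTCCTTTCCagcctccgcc
Rpl38: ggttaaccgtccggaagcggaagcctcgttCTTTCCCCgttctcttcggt
Rps18: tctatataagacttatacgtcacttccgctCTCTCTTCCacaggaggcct
Rps27: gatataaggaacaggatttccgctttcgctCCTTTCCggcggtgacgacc
Rps6: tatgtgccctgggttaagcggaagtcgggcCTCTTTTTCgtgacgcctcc

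The tracts of these 7 genes ran from 5 bases in Rplp2 to 11 in Rpl35. RefSeq starts are often a few bases from the true start, so a gene without a match here may still have such a tract. The letters CCGGAAG, a form of the site bound by ETS factors, lay on either strand of the 300 bases in 21 of 43 members, or 48.8%, against 2683 of 27025 genes, or 9.93%. Both counts describe letters in a window and not binding.

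The Affymetrix values are intensities in units of the deposited table, which was normalised between arrays, so each change is relative to the whole array. A gene was tested where it exceeded 16 units on at least 5 arrays, which 44 of 49 members and 8774 of 18193 genes did. Rps16, Rpl12, Rpl14, Rpl3l and Rpl39l did not pass. Of these, Rps16 read 1.97 to 2.69 units and Rpl14 10.9 to 20.1 units, so their probe sets gave no usable level. Rps25 passed on 10 arrays only, all but 1 of them from LPS-treated mice, so it entered through the groups where it was bright. All counts below are of the 44 tested members and not of all 49. Many ribosomal protein genes have near-identical pseudogenes, which a probe set can also detect, and the signals of gene and pseudogene cannot be separated here.

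Acadm followed the labels. Under LPS it read 14.3 to 218 units in MCAD-/- mice, against 1450 to 2375 in wild type mice, and under vehicle 9.03 to 80.2 in MCAD-/- mice, against 3106 to 4022 in wild type mice. The hepatocyte markers of a fixed list were bright, with a mean log2 level over 10 genes between 11.74 and 12.63 in all mice. A pair of arrays stood apart by the 3′ to 5′ log2 ratio of the actin control, which read 3.69 for wild type LPS replicate 4 and 3.18 for wild type vehicle replicate 3, against 1.35 to 2.34 on the other arrays. Wild type LPS replicate 4 also had 1511, 463 and 1853 units on the 3 control probe sets for 18S ribosomal RNA, where the other arrays had 14.8 to 130.3 units. Counts of members past the threshold with LPS and between the genotypes are given with and without these 2 arrays below. Values of single genes, probe sets, gene lists and cell type markers are given with them.

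LPS raised the messages of most tested ribosomal protein genes by small amounts in both genotypes. In MCAD-/- mice 26 of 44 members, or 59.1%, were higher with LPS at an adjusted p under 0.05, and 0 were lower. Among all 8774 tested genes 38.1% were higher and 27.6% lower. In wild type mice 31 of 44 members, or 70.5%, were higher and 0 lower, where 40.0% of all tested genes were higher and 24.0% lower. The median log2 change of the members was 0.25 in MCAD-/- mice, where that of all tested genes was 0.14, and 0.29 in wild type mice, where that of all tested genes was 0.18. Without Rps25, 25 of 43 members, or 58.1%, were higher in MCAD-/- mice and 30 of 43, or 69.8%, in wild type mice, with medians of 0.25 and 0.29.

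**Figure D1:**
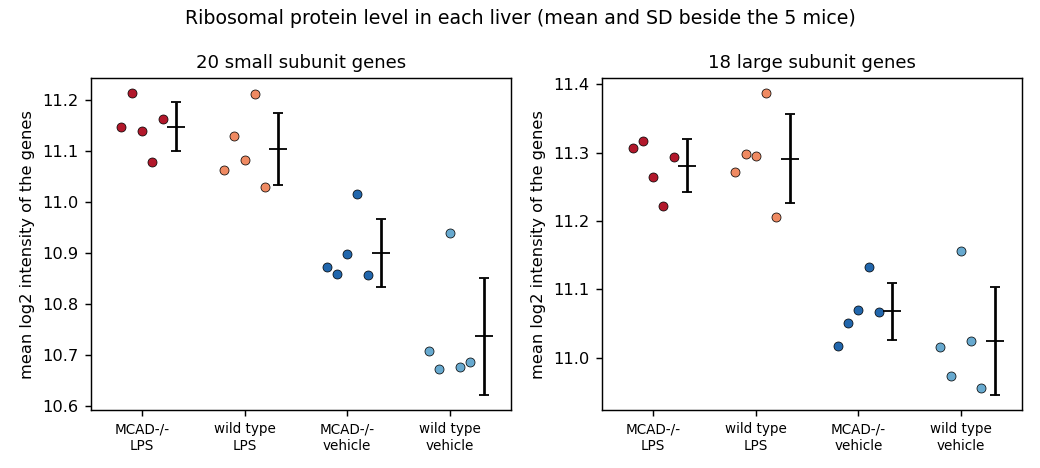
Mean log2 intensity of the 20 tested small subunit genes (left) and the 18 tested large subunit genes (right) in each liver, by group, with the group mean and SD of the 5 mice beside the points. In both panels every mouse with LPS lies above every mouse with vehicle, and wild type vehicle replicate 3 is the highest of its group, at 10.94 for the small subunit. The small subunit genes include Rps25, and their gap is narrow, with a lowest LPS value of 11.03 and a highest vehicle value of 11.02.

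The mean log2 level over all 44 members was 11.15 ± 0.05 in MCAD-/- mice with LPS, against 10.89 ± 0.06 in MCAD-/- mice with vehicle (SD, n = 5 each). In wild type mice it was 11.12 ± 0.06 with LPS, against 10.78 ± 0.07 with vehicle (SD, n = 5 each). The mice with LPS ran from 11.04 to 11.21 and the mice with vehicle from 10.73 to 10.98, so no treated mouse overlapped an untreated one. Rps25, which entered through the groups where it was bright, is part of these means. Without the 2 arrays of high actin ratio, 27 of 44 members were higher in MCAD-/- mice with a median of 0.25. In wild type mice 35 of 44 were higher with a median of 0.33. Of all tested genes 40.7% (median 0.13) and 39.3% (median 0.16) were then higher.

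Most single changes were small. The change passed 1.5-fold upwards in 3 of 44 members in MCAD-/- mice and in 6 of 44 in wild type mice, where 2242 and 2434 of all 8774 tested genes did so. Rps25 is counted in both, and without it the numbers were 2 of 43 and 5 of 43. The mice with LPS lay entirely above those with vehicle in 25 members in MCAD-/- mice, against a background of 29.6% of all tested genes, and in 20 members in wild type mice, against 28.9%. They lay entirely below in 0 members in both genotypes, against 21.7% of all tested genes in MCAD-/- mice and 17.3% in wild type mice. Without Rps25, the mice with LPS lay entirely above in 24 and 19 of 43 members. The set of 24 members called in both genotypes, Rps25 counted, included Rps20, Rps19, Rps9, Rpl13a, Rpl41, Rplp0 and Rplp2. Rpl7a and Rps7 were called in MCAD-/- mice alone. Rpl27a, Rpl37a, Rpl38, Rps14, Rps29, Rps3 and Rps6 were called in wild type mice alone, and 11 members in neither, but no difference between the genotypes' responses passed its own test (below).

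**Figure D2:**
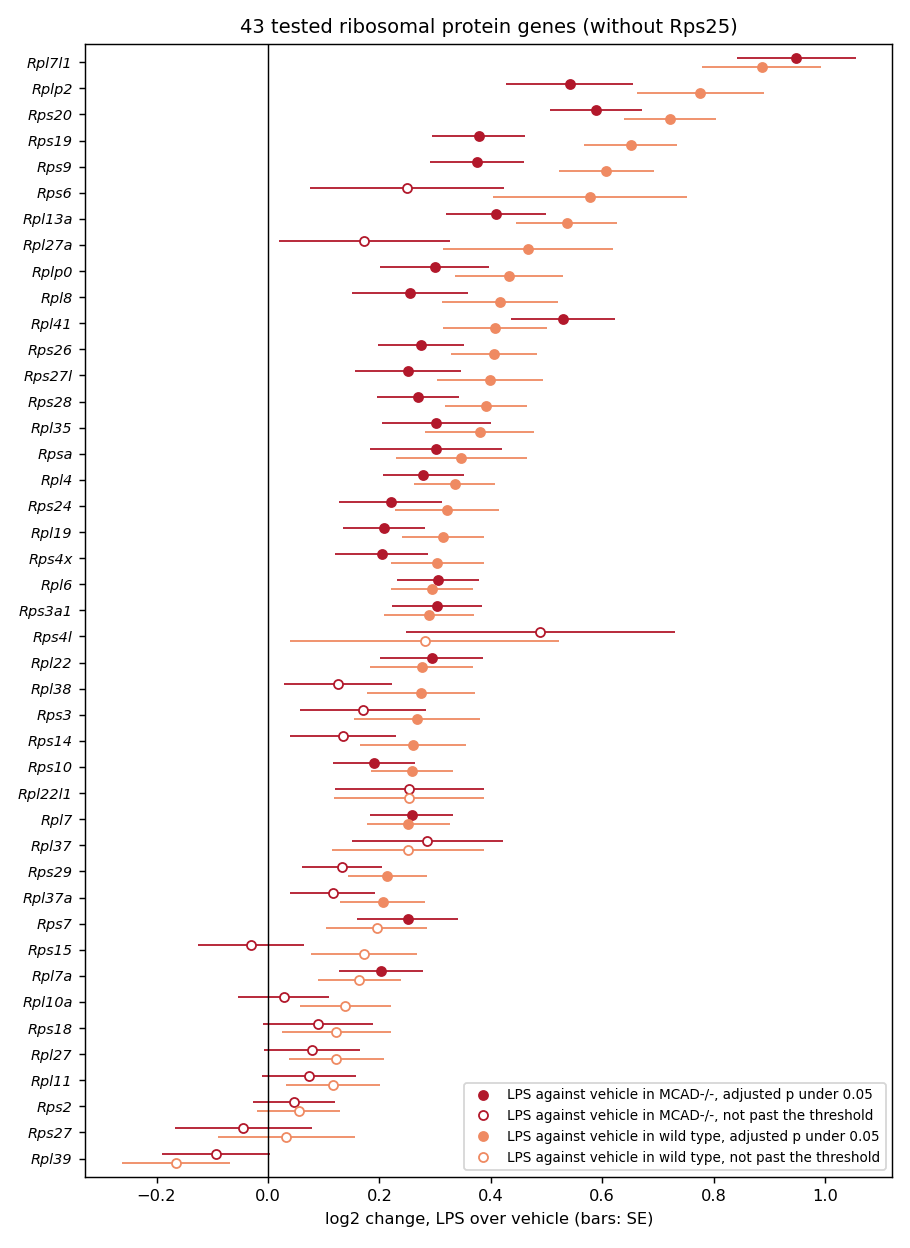
Log2 change with LPS over vehicle for 43 tested genes in MCAD-/- mice and in wild type mice, without Rps25, whose dim values give no fold, and with bars for the standard error of the model. Filled points passed an adjusted p of 0.05; Rpl7l1 stands at the top, at 0.95 and 0.89, and Rpl39 at the bottom, below 0 in both genotypes and not past the threshold.

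Among the proteins of the small subunit, 12 of 20 tested genes rose in MCAD-/- mice with a median log2 change of 0.24, and 15 of 20 rose in wild type mice with a median of 0.30, Rps25 counted in both. Rps20, a protein of the subunit's head, read 8322, 8435, 7791, 8053 and 8544 units in MCAD-/- mice with LPS, against 5637, 5341, 4959, 6229 and 5252 units in MCAD-/- mice with vehicle. Wild type livers had 8478, 7631, 8331, 9228 and 8284 units with LPS, against 5205, 4835, 5569, 5034 and 4778 units with vehicle. All 10 treated mice lay above all 10 untreated ones. The log2 change was 0.59 ± 0.08 SE in MCAD-/- mice (adjusted p 4.08e-06) and 0.72 ± 0.08 SE in wild type mice (adjusted p 3.28e-07), the second a 1.65-fold rise. Its other bright probe set gave 0.59 and 0.81, but with the mean of its 4 probe sets, of which 2 read at most 4.14 and 17.1 units, the log2 change was 0.18 (adjusted p 0.0923) and 0.25.

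Rps19, whose human counterpart is mutated in Diamond-Blackfan anaemia, read 2460, 2543, 2341, 2223 and 2505 units in MCAD-/- mice with LPS, against 1788, 1877, 1946, 1898 and 1774 units with vehicle. With LPS, wild type mice read 2590, 2837, 2564, 3023 and 2496 units, against 1703, 1601, 1980, 1657 and 1664 units with vehicle. The groups did not overlap in either genotype, and the log2 rise was 0.38 (adjusted p 0.000561) in MCAD-/- mice and 0.65 (adjusted p 1.37e-06) in wild type mice. Rps9, a protein of the small subunit's body, rose by 0.38 on the log2 scale (adjusted p 0.000698) in MCAD-/- mice, where the 5 mice with LPS read 2432 to 2967 units and the 5 with vehicle 1918 to 2352 units. It rose by 0.61 (adjusted p 4.02e-06) in wild type mice, with 2523 to 2865 units under LPS and 1607 to 1873 units under vehicle. A further bright probe set of Rps9 was also higher under LPS in wild type mice, at 2227 to 3692 units against 1561 to 1939. In MCAD-/- mice it was spread widely under both treatments, as described with the genotypes below. With the mean of the gene's probe sets the change was past the threshold in neither genotype (adjusted p 0.631 and 0.0726).

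Rpsa, which as a precursor also forms the laminin receptor, read 2915 to 3493 units in MCAD-/- mice with LPS, against 2287 to 2970 units with vehicle. The wild type values were 2823 to 4242 units with LPS, against 2341 to 3335 units with vehicle. Treated and untreated mice overlapped in both genotypes, and the rises of 1.23-fold (adjusted p 0.03) and 1.27-fold (adjusted p 0.0145) were past the threshold. Rps4x, the X-linked protein S4, rose 1.15-fold (adjusted p 0.0371) in MCAD-/- mice and 1.24-fold (adjusted p 0.00343) in wild type mice. With the mean of their probe sets, which includes a dim one in each, Rpsa in MCAD-/- mice (adjusted p 0.904) and Rps4x in both genotypes (adjusted p 0.335 and 0.0751) were not past the threshold.

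Rps18, often used as a reference gene in qPCR, was not past the threshold in either genotype on the probe set used. It read 5190, 5059, 4627, 5198 and 5563 units in MCAD-/- mice with LPS, against 4647, 4747, 4357, 5087 and 5264 units with vehicle. Wild type livers had 5175, 5505, 5215, 5954 and 5493 units with LPS, against 4931, 4502, 6375, 4906 and 4572 units with vehicle. The highest value of all 20 was that of wild type vehicle replicate 3, and the groups overlapped in both genotypes. The log2 change was 0.09 ± 0.10 SE (adjusted p 0.43) in MCAD-/- mice and 0.12 ± 0.10 SE (adjusted p 0.28) in wild type mice. Under 2 of the 30 alternative settings the wild type rise was past the threshold, with a lowest adjusted p of 0.0257. A further bright probe set read 2877 to 3329 units in MCAD-/- mice with LPS, against 2163 to 2729 with vehicle, without overlap. In wild type mice it read 2747 to 3746 units with LPS, against 2001 to 3269 with vehicle. Another bright one overlapped in both genotypes, with 3391 to 4327 units against 3764 to 4236 in MCAD-/- mice.

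Rps25, which several viral internal ribosome entry sites need, was dim throughout. It read 23.0, 32.8, 19.8, 22.4 and 36.4 units in MCAD-/- mice with LPS, against 15.6, 13.0, 13.2, 18.1 and 13.8 units with vehicle. With LPS, wild type mice read 18.3, 24.9, 14.8, 20.3 and 21.3 units, against 6.67, 9.64, 13.1, 7.23 and 9.15 units with vehicle. All treated mice lay above the untreated ones of their genotype. Since the gene passed the filter through the treated mice, no fold and no test of its change is given.

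**Figure D3:**
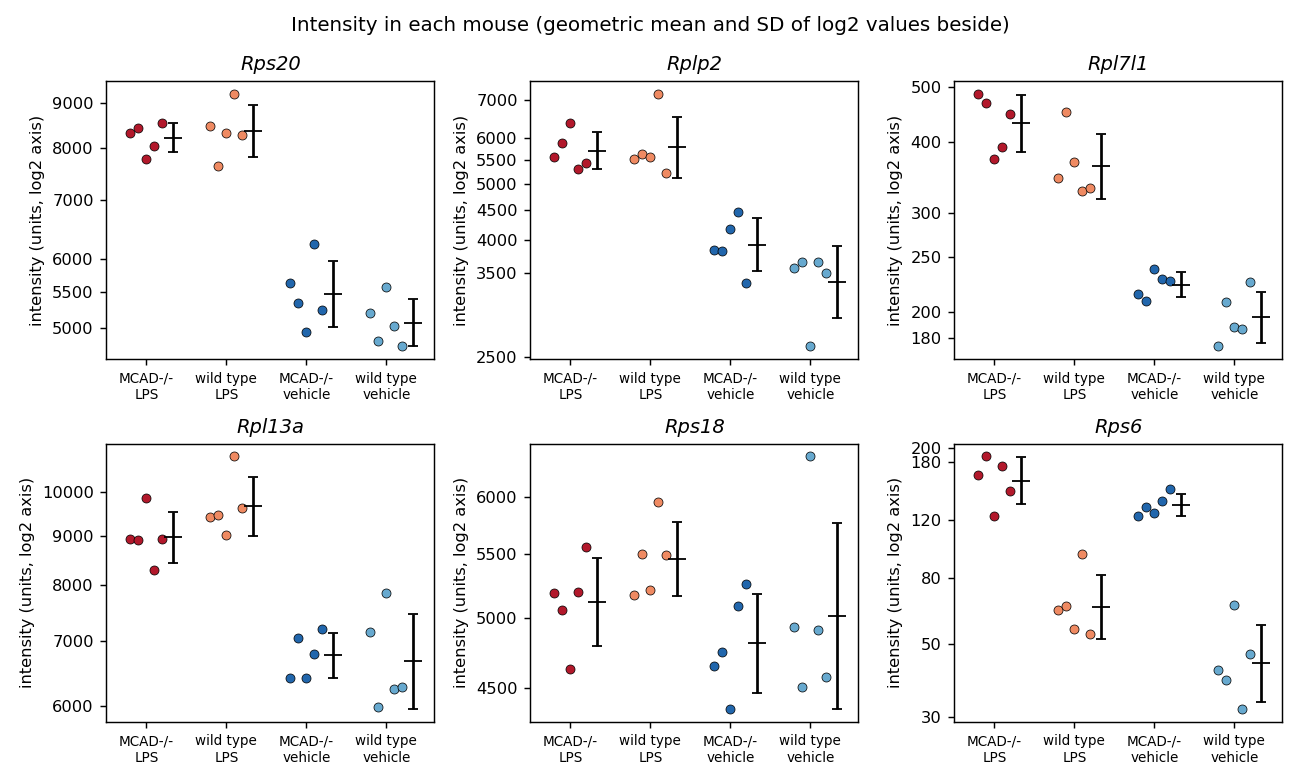
Intensity of 6 genes in each mouse, in units on a log2 axis, with the geometric mean and the SD of the log2 values beside the 5 mice of each group. Rps20, Rplp2, Rpl7l1 and Rpl13a separate LPS from vehicle in both genotypes, Rps18 overlaps throughout, and Rps6 separates the genotypes, with 123.7 units or more in MCAD-/- mice and 94.7 or less in wild type mice.

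Of the large subunit, 10 of 18 tested genes rose in MCAD-/- mice with a median log2 change of 0.23, and 12 of 18 rose in wild type mice with a median of 0.28. Rpl13a, which in human cells can leave the ribosome to silence inflammatory messages, read 8948, 8930, 9866, 8308 and 8935 units in MCAD-/- mice with LPS, against 6406, 7051, 6413, 6794 and 7212 units with vehicle. The wild type values were 9430, 9474, 9019, 10900 and 9622 units with LPS, against 7165, 5975, 7857, 6246 and 6277 units with vehicle. No treated mouse overlapped an untreated one, and the rise was 1.33-fold (adjusted p 0.00055) in MCAD-/- mice and 1.45-fold (adjusted p 3.56e-05) in wild type mice. Rpl13a, too, is a common qPCR reference gene.

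Rpl41, the smallest protein of the ribosome, read 3128, 3096, 2744, 2519 and 2570 units in MCAD-/- mice with LPS, against 1744, 1908, 2186, 2122 and 1786 units with vehicle. Wild type livers had 2533 to 3149 units with LPS, against 2070 to 2236 units with vehicle. The groups did not overlap, and the rise was 1.44-fold (adjusted p 5.59e-05) in MCAD-/- mice and 1.33-fold (adjusted p 0.000767) in wild type mice. Rpl39, which lines the exit tunnel for the new chain, had the lowest log2 changes, -0.09 ± 0.10 SE (adjusted p 0.407) in MCAD-/- mice and -0.17 ± 0.10 SE (adjusted p 0.144) in wild type mice, neither past the threshold. Its probe set read only 53.0 to 72.6 units over all mice.

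Both stalk proteins measured rose in both genotypes. The stalk reaches out from the large subunit and recruits the elongation factors. Rplp2 read 5577, 5896, 6384, 5303 and 5446 units in MCAD-/- mice with LPS, against 3841, 3823, 4183, 4469 and 3371 units with vehicle. With LPS, wild type mice read 5517, 5625, 5576, 7172 and 5219 units, against 3580, 3661, 2613, 3665 and 3508 units with vehicle. The 2 extreme wild type values, 7172 and 2613 units, came from the 2 arrays of high actin ratio. The rise was 1.46-fold (adjusted p 0.000329) in MCAD-/- mice and 1.71-fold (adjusted p 6.92e-06) in wild type mice, without overlap.

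Rplp0, the base of the stalk and another qPCR reference gene, read 7800, 7501, 7103, 7122 and 6936 units in MCAD-/- mice with LPS, against 6015, 5832, 6544, 6625 and 4780 units with vehicle. The wild type values were 7070, 7334, 6752, 6053 and 7280 units with LPS, against 5093, 5471, 4433, 5223 and 5340 units with vehicle. The groups did not overlap, and the rise was 1.23-fold (adjusted p 0.011) in MCAD-/- mice and 1.35-fold (adjusted p 0.000668) in wild type mice.

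The paralogues are copies of ribosomal protein genes, some of which can take the place of their parent protein. Rpl7l1, the paralogue of Rpl7, read 487, 468.9, 373.6, 391.5 and 447.7 units in MCAD-/- mice with LPS, against 215.8, 209.3, 238.2, 228.9 and 226.9 units with vehicle. Wild type livers had 345, 452.7, 368.1, 328.3 and 331.3 units with LPS, against 174, 208.9, 188.4, 186.8 and 226.3 units with vehicle. Every treated mouse lay above every untreated one, and the rise was 1.93-fold (log2 0.95 ± 0.11 SE, adjusted p 2.31e-07) in MCAD-/- mice and 1.85-fold (log2 0.89 ± 0.11 SE, adjusted p 5.97e-07) in wild type mice. Its parent Rpl7 rose 1.20-fold (adjusted p 0.00508) in MCAD-/- mice and 1.19-fold (adjusted p 0.00613) in wild type mice. The difference between a paralogue's and its parent's change was not tested.

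Rps27l, in human cells a target gene of p53, rose 1.19-fold (adjusted p 0.0256) in MCAD-/- mice and 1.32-fold (adjusted p 0.00109) in wild type mice. Its parent Rps27 was not past the threshold in either, with log2 changes of -0.04 (adjusted p 0.767) and 0.03 (adjusted p 0.827), at only 59.0 to 95.5 units. Rpl22l1 was not past the threshold in either genotype (log2 0.25, adjusted p 0.102, and log2 0.25, adjusted p 0.107), and its parent Rpl22 was in both (log2 0.29, adjusted p 0.00862, and log2 0.28, adjusted p 0.013), but in neither with the mean of its probe sets, which differ (below). Rps4l had widely spread values, 160.7 to 379.6 units in MCAD-/- mice with LPS and 150.2 to 202.2 units with vehicle, and its change was not past the threshold (adjusted p 0.0801 in MCAD-/- mice and 0.318 in wild type mice).

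A TOP start in the RefSeq window was present in 7 tested members, of which Rplp2, Rpl35 and Rps10, whose starts are printed above, rose with LPS in both genotypes. Of 31 tested members with a window and no such start, 18 rose in both. For the letters CCGGAAG the counts were 11 of 20 tested members with them, Rps25 counted, and 10 of 18 without.

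Bulk liver RNA mixes cell types, and fewer cells of a type cannot be told apart from less RNA per cell. With LPS, all 5 tested neutrophil and infiltrating myeloid markers were brighter in both genotypes. Their mean log2 level per mouse was 9.21 to 9.51 in MCAD-/- mice with LPS and 3.32 to 5.87 in MCAD-/- mice with vehicle, while in wild type mice it was 8.59 to 9.51 with LPS and 3.81 to 5.21 with vehicle. Of that list Csf3r, Cxcr2, Mmp9 and Camp stayed under 16 units on all arrays. Since some vehicle means lay under 4, the log2 value of 16 units, tested markers can have passed the filter through the treated mice. No fold and no test of their change is given. Of 10 Kupffer cell and macrophage markers 9 were lower with LPS in MCAD-/- mice and 7 in wild type mice, and 1 was higher in each. Of 11 liver endothelial markers 2 were higher and 7 lower in MCAD-/- mice, and 5 higher and 1 lower in wild type mice. For 6 of these 11 the response was lower in MCAD-/- mice past the threshold, against 2.76% of all tested genes. Of 10 stellate cell markers 0 were higher and 7 lower in MCAD-/- mice, and 2 higher and 3 lower in wild type mice. Of 10 hepatocyte markers 6 were lower and 1 higher in each genotype, with medians of -0.23 and -0.26. Lymphocyte markers were not tested, since 10 of the 11 measured, Cd3e and Cd79a among them, stayed under 16 units on all arrays. The part of these shifts in the ribosomal protein changes was not tested.

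The LPS response did not differ between the genotypes for any member past the threshold. For the interaction, which is the response in MCAD-/- mice minus that in wild type mice, 0 of 44 members passed in limma, where 4.11% of all tested genes did (1.36% with a higher and 2.76% with a lower response in MCAD-/- mice), and 1 member had an unadjusted p under 0.05. The lowest adjusted p was 0.202, for Rps19 (log2 -0.27 ± 0.12 SE). The members' interactions ran from -0.33 for Rps6 to 0.21 for Rps4l with a median of -0.09, where the median of all tested genes was -0.07. A p that misses the threshold does not show that the responses were equal.

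Between the genotypes 1 member stood apart. Under vehicle 2 of 44 members were higher in MCAD-/- mice, Rps6 and Rps25, and 0 lower, against a background of 9.81% of all tested genes higher and 6.39% lower. Without Rps25, which was dim in both genotypes (below), 1 of 43 was higher. Under LPS 1 member, Rps6, was higher and 0 lower, against 8.75% and 11.8%. The median log2 difference of the members was 0.05 under vehicle and -0.02 under LPS, where those of all tested genes were 0.04 and -0.03. Without the 2 arrays of high actin ratio, 3 members were higher under vehicle and 1 under LPS, against 10.7% and 9.61% of all tested genes.

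Rps6 is the small subunit protein that S6 kinases phosphorylate downstream of mTORC1. It read 164.8, 187.9, 123.7, 176.1 and 147.5 units in MCAD-/- mice with LPS, against 63.5, 65.5, 55.5, 94.7 and 53.7 units in wild type mice with LPS. Under vehicle it read 123.8, 131.3, 125.7, 137.6 and 149.2 units in MCAD-/- mice, against 41.8, 38.9, 66.1, 31.6 and 46.5 units in wild type mice. All 10 MCAD-/- mice lay above all 10 wild type mice. The difference was 2.43-fold under LPS (log2 1.28 ± 0.17 SE, adjusted p 2.33e-05) and 3.05-fold under vehicle (log2 1.61 ± 0.17 SE, adjusted p 1.22e-06).

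Rps6 also rose with LPS in wild type mice, 1.49-fold (adjusted p 0.00698), with overlap between treated and untreated mice. In MCAD-/- mice its log2 change with LPS was 0.25 ± 0.17 SE (adjusted p 0.217). Its intensity was low for a member, and its other probe set read 2.63 to 4.77 units over all mice, under the limit for testing, so the genotype difference rests on 1 probe set.

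**Figure D4:**
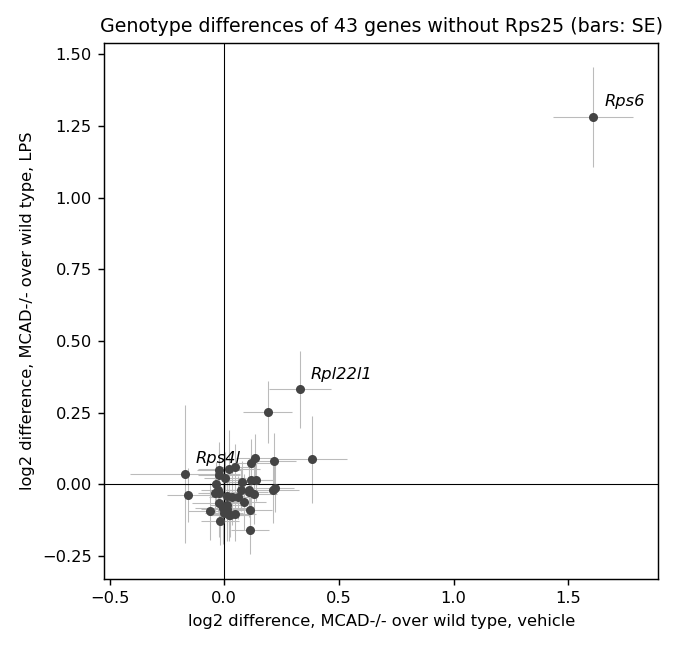
Log2 difference of MCAD-/- over wild type under vehicle (horizontal axis) and under LPS (vertical axis) for 43 tested genes, without the dim Rps25, with bars for the standard error of the model. Rps6 lies alone at 1.61 and 1.28, and the other genes cluster near 0.

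Rps25 was past the threshold under vehicle (adjusted p 0.0142), but all 5 wild type mice and 4 of 5 MCAD-/- mice were under 16 units, so no fold is given. The groups under vehicle did not overlap in 3 members, all higher in MCAD-/- mice, against a background of 7.68% of all tested genes higher and 6.11% lower in this way. Under LPS they did not overlap in 1, Rps6, against 5.44% higher and 7.36% lower. The 3 under vehicle were Rps6, Rps9 (log2 0.22, adjusted p 0.0867) and Rps28 (log2 0.14, adjusted p 0.224), of which the last 2 were not past the threshold. Rpl22l1 had a log2 difference of 0.33 ± 0.13 SE in both treatments, with adjusted p 0.104 under vehicle and 0.088 under LPS. Under vehicle, markers of other cell types also differed: 10 of 11 tested liver endothelial, 7 of 10 stellate cell and 6 of 10 Kupffer cell markers were higher in MCAD-/- mice and 0 lower. Their mean log2 levels per mouse in MCAD-/- and in wild type mice were 6.41 to 7.01 and 4.84 to 5.91 for endothelial markers, 7.42 to 7.62 and 6.36 to 7.17 for stellate cell markers, and 6.97 to 7.43 and 6.15 to 6.87 for Kupffer cell markers. Their part in the genotype differences was not tested.

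With each probe set taken on its own, most of those naming 1 member were higher with LPS. The 49 members lie on 105 probe sets, of which 87 passed the filter. With LPS 57 of these (65.5%) were higher and 2 lower in MCAD-/- mice, and 65 (74.7%) higher and 1 lower in wild type mice. Of all 15748 tested probe sets 34.5% were higher and 26.0% lower in MCAD-/- mice, and 34.9% higher and 24.4% lower in wild type mice. The exceptions were a second probe set of Rpl22 at 81.3 to 225.4 units (log2 -0.85, adjusted p 0.000163, in MCAD-/- mice, and log2 -0.22, adjusted p 0.251, in wild type mice) and one of Rps24 at 8.07 to 25.1 units (log2 -0.62, adjusted p 0.0251, and log2 -0.63, adjusted p 0.0242). On the 95 tested probe sets that name a ribosomal protein gene among several symbols, 34 (35.8%) were higher and 3 lower with LPS in MCAD-/- mice, a share of higher ones near that of all probe sets, and 65 (68.4%) were higher and 4 lower in wild type mice.

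Between genotypes the probe sets of 3 members differed. Rps9 has a second bright probe set that read 81.8, 2252, 2464, 181.9 and 86.9 units in MCAD-/- mice with LPS, against 2496, 2227, 3021, 3692 and 2792 units in wild type mice with LPS. Under vehicle it read 140.4, 1041, 1086, 1641 and 165.7 units in MCAD-/- mice, against 1939, 1706, 1561, 1598 and 1638 units in wild type mice. Values of 181.9 units or less thus occurred in 5 of 10 MCAD-/- mice and in 0 of 10 wild type mice. The log2 difference was -2.91 ± 0.87 SE under LPS (adjusted p 0.0243) and -1.66 ± 0.87 SE under vehicle (adjusted p 0.241). On the probe set used for Rps9 the log2 difference under LPS was -0.01 ± 0.09 SE (adjusted p 0.942).

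A second probe set of Rpl7l1 was lower in MCAD-/- mice, by a log2 difference of -0.76 ± 0.18 SE under LPS (adjusted p 0.0066) and -0.97 ± 0.18 SE under vehicle (adjusted p 0.00109). On the brighter probe set used here, the differences were 0.25 ± 0.11 SE (adjusted p 0.103) and 0.19 ± 0.11 SE (adjusted p 0.254). The third, at 150.5 to 441.7 units, gave -0.29 (adjusted p 0.0846) and -0.19 (adjusted p 0.315), so 2 of 3 probe sets were opposite in sign to the one used. All 3 were higher with LPS in both genotypes. A second probe set of Rpl13a was lower in MCAD-/- mice under LPS, with a log2 difference of -0.46 ± 0.12 SE (adjusted p 0.0118), where the one used gave -0.11 ± 0.09 SE (adjusted p 0.444).

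The ribosome's supply chain and the factors that drive it were described from lists of genes, chosen with earlier results of these data known. Their counts stand beside the 38.1% of all tested genes that rose and the 27.6% that fell with LPS in MCAD-/- mice, and the 40.0% and 24.0% in wild type mice. RNA polymerase I makes ribosomal RNA in the nucleolus. Of 17 tested genes of this machinery 10 (58.8%) rose with LPS in MCAD-/- mice (median log2 0.45) and 13 (76.5%) in wild type mice (median 0.47), with 0 lower in both. The polymerase subunit Polr1e averaged 71.5 units in MCAD-/- mice with LPS against 18.7 with vehicle, and 71.9 units in wild type mice with LPS against 20.3 with vehicle (adjusted p 4.57e-07 and 1.04e-06). Ttf1, which ends transcription of ribosomal RNA genes, was brighter on average in MCAD-/- mice under both treatments. It averaged 39.4 units in MCAD-/- mice against 14.1 in wild type mice under LPS. Under vehicle it averaged 24.8 units in MCAD-/- mice against 11.2 in wild type mice, where all mice were under 16 units. Both wild type means lay under 16 units, so Ttf1 can have passed the filter through the MCAD-/- mice. No fold and no test of its genotype difference is given.

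Ribosome assembly factors process ribosomal RNA and join the proteins to it. Of 64 tested, 37 (57.8%) rose and 2 fell in MCAD-/- mice with LPS (median log2 0.47), and 42 (65.6%) rose and 1 fell in wild type mice (median 0.62). Eif6, which keeps new large subunits from joining small ones, averaged 1092 units in MCAD-/- mice with LPS against 355.8 with vehicle, a 3.07-fold rise (adjusted p 1.54e-07). In wild type mice it averaged 1387 units with LPS against 381.6 with vehicle, a 3.63-fold rise (adjusted p 2.53e-08). Gnl2, a nucleolar GTPase of large subunit assembly, rose 3.37-fold (adjusted p 5.72e-08) in MCAD-/- mice and 2.91-fold (adjusted p 3.53e-07) in wild type mice. Heatr1, needed for the early small subunit precursor, was the 1 gene of this list whose response differed between genotypes (log2 interaction 1.04 ± 0.23 SE, adjusted p 0.0146). It averaged 499.1 units in MCAD-/- mice with LPS against 114.2 with vehicle, and 360.1 units in wild type mice with LPS against 169.3 with vehicle.

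**Figure D5:**
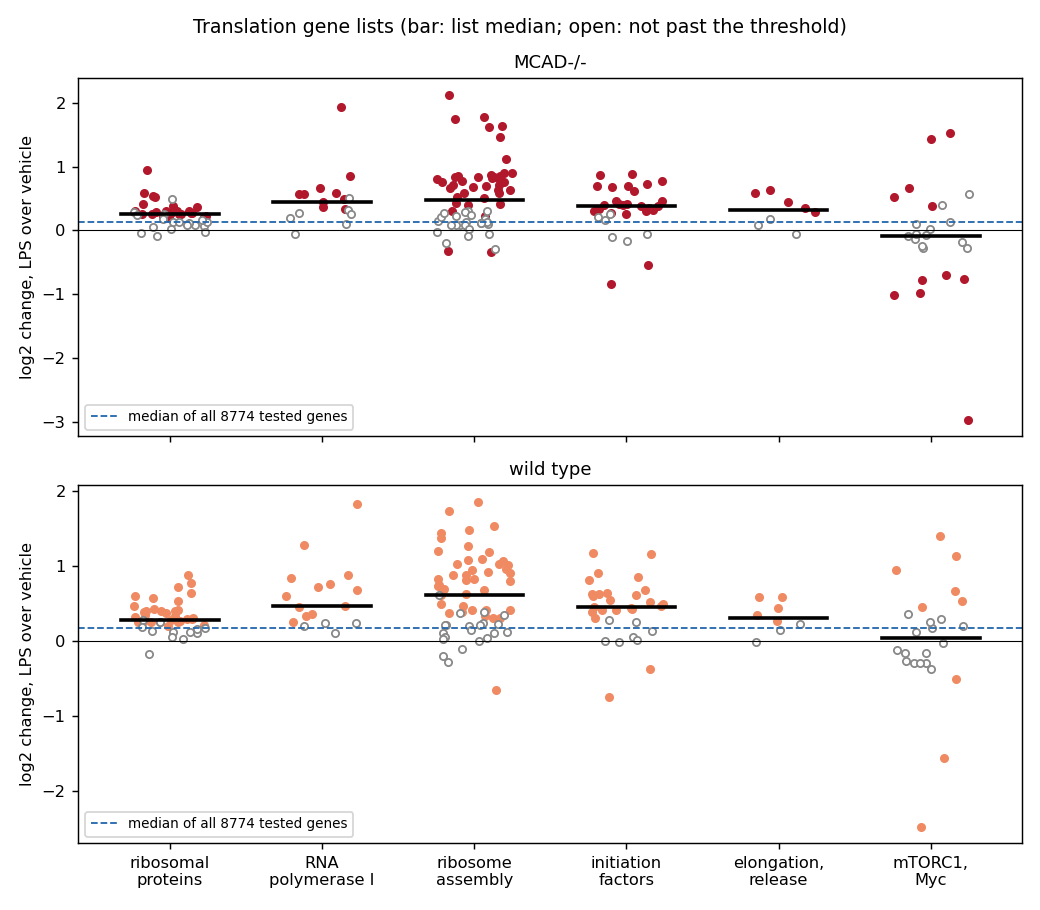
Log2 change with LPS over vehicle for the tested genes of 6 lists (Rps25 is not drawn), in MCAD-/- mice (top) and wild type mice (bottom); filled points passed an adjusted p of 0.05, black bars are list medians and the dashed line is the median of all 8774 tested genes. The median of the ribosomal proteins, 0.25 and 0.29, lies below those of the polymerase I (0.45 and 0.47), assembly (0.47 and 0.62) and initiation lists (0.38 and 0.46), and the mTORC1 and Myc list scatters both ways.

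Of 31 tested initiation factors 23 (74.2%) rose and 2 fell with LPS in MCAD-/- mice (median log2 0.38), and 22 (71.0%) rose and 2 fell in wild type mice (median 0.46). Eif2b4, a subunit of the factor that reloads eIF2 with GTP, rose 1.85-fold (adjusted p 7.24e-07) in MCAD-/- mice and 2.26-fold (adjusted p 1.83e-08) in wild type mice. Eif4b, a helper of the eIF4A helicase, fell by 0.85 (adjusted p 1.61e-08) and 0.74 (adjusted p 1.11e-07) on the log2 scale. Of 8 elongation and release factors 5 (62.5%) rose and 0 fell in each genotype. Among these Eef1b2, which reloads eEF1A with GTP, rose 1.51-fold in both (adjusted p 1.58e-05 and 1.67e-05), and Etf1, the release factor eRF1, rose by 0.63 (adjusted p 0.000203) and 0.59 (adjusted p 0.000416) on the log2 scale.

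Of 6 tested genes for ribosomal components with other symbols and for other TOP messages, 2 (33.3%) rose in each genotype, a share below that of all tested genes, and 1 fell in MCAD-/- mice. Nap1l1, a histone chaperone whose human message has a TOP start, rose 2.58-fold (adjusted p 5.12e-08) in MCAD-/- mice and 2.37-fold (adjusted p 2.03e-07) in wild type mice. Btf3, which binds chains as they leave the ribosome, rose 1.46-fold (adjusted p 0.000279) and 1.34-fold (adjusted p 0.00299). Hnrnpa1, an RNA-binding protein, fell by 0.64 on the log2 scale in MCAD-/- mice (adjusted p 0.00845).

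The regulators on the mTORC1 and Myc list moved both ways. With LPS 5 of 24 rose and 6 fell in MCAD-/- mice (median log2 -0.09), and 6 rose and 3 fell in wild type mice (median 0.05), shares of rising genes below those of all tested genes. Deptor, an inhibitor of mTOR, averaged 182.6 units in MCAD-/- mice with LPS against 1435 with vehicle (adjusted p 1.35e-10), and 265.8 units in wild type mice with LPS against 1481 with vehicle (adjusted p 2.14e-09). Ddit4, an inhibitor of mTORC1 induced by stress, rose 2.88-fold (adjusted p 1.68e-06) in MCAD-/- mice and 2.65-fold (adjusted p 4.97e-06) in wild type mice. Mxi1, which competes with Myc for its partner Max, fell by 1.01 (adjusted p 5.31e-06) and 1.56 (adjusted p 2.09e-08) on the log2 scale. Mtor itself averaged 169.5 units in MCAD-/- mice with LPS against 312 units in wild type mice with LPS (adjusted p 0.000265). Rptor, the mTORC1 scaffold, was lower in MCAD-/- mice by log2 differences of -0.69 under LPS (adjusted p 0.00444) and -0.54 under vehicle (adjusted p 0.0263).

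After the group means were taken out, mice of a group still differed in the mean log2 level of the 44 members, from -0.08 for MCAD-/- LPS replicate 4 to 0.13 for wild type vehicle replicate 3. The genes outside the list that followed this deviation most closely over the 20 arrays were Rwdd2b (Pearson r 0.80), Mpzl3 (0.79), Gtf3c5 (0.79), Nhp2 (0.79), Snrpe (0.77), Aimp1 (0.76), Sarnp (0.76), Gfod2 (0.75), Fancl (0.75) and Exosc9 (0.75). Without the 2 arrays farthest from the median, wild type vehicle replicate 3 and MCAD-/- vehicle replicate 4, r ran from 0.52 for Aimp1 to 0.79 for Gfod2. The arrays share their normalisation and RNA quality, and these values are a description only.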

How the data were processed

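Per the submitters' processing notes the authors' deposited intensities come from GCRMA, a method that subtracts background, brings arrays to a common scale and joins the probes of a set. Which version was used is not given in the sources here. The values are on a linear scale and were taken to log2 with no pseudocount. Of 45101 probe sets, 64 controls were left out, 932 carry several gene symbols, 9160 are not in the annotation used and 34945 carry 1. Gene IDs of 34741 of the last were found in RefSeq (GRCm38.p6), with 0 changes of symbol.

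Genes were fitted in limma 3.58.1 (R 4.3.3) with a mean for each of the 4 groups and 1 shared estimate of the spread. Every adjusted p is a two-sided Benjamini-Hochberg value of limma over the 8774 tested genes, or over all tested probe sets where a second probe set is described. The model was tested on simulated data. The members, lists and tests were chosen with earlier results of these data known. Named members are the 6 largest rises and falls past the threshold in each comparison, the paralogues with their parents and a fixed panel (Rplp0, Rplp2, Rpsa, Rps6, Rps18, Rpl13a); of other lists, up to 3 genes of smallest adjusted p are eligible. Other members' names follow from counts and were picked after their values were seen. Alternatives were a replicate block, 2 other filters, the mean of probe sets, 2 other scalings, another prior, array weights, the compared groups alone, and arrays left out. No gene set test was run, and the number of mice limits the precision.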

Additional observations from a re-analysis of the deposited data

Results flagged for a closer look

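Among 84 sets of 5 mice examined, 9 held a mouse far from the other 4; chance alone does this in about 1 of 20 sets. Wild type vehicle replicate 3 accounted for 7 of the 9. It had the highest value of its group for Rps18 (6375 units), Rpl22 (4515 units), Rps27l (3637 units) and Rpl22l1 (1656 units), the lowest for Rplp2 (2613 units) and Rps9 (1607 units), and the highest mean log2 level over the 44 members (10.91). This is one of the arrays of high actin ratio. Rplp2 was far above the group's other mice in wild type LPS replicate 4 (7172 units), the other such array. MCAD-/- LPS replicate 4 had a mean log2 level of 11.07, below the other mice of its group.

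The control probe sets for 18S ribosomal RNA are outside the main measurement. On the wild type LPS replicate 4 array they read 1511 (3′), 463 (5′) and 1853 units (middle), above all vehicle arrays. The middle one also read 62.2 units on wild type LPS replicate 1, against 21.5 to 42.3 units on the vehicle arrays. The part of these signals in the ribosomal protein values was not tested.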

How the results depend on the processing

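The members' median change with LPS stayed above 0 in both genotypes under all 30 alternative settings. In MCAD-/- mice the members called higher numbered 26, 23 to 29 under settings that keep all mice or omit the 2 arrays of high actin ratio, and 18 to 28 with 1 mouse left out, the lowest without MCAD-/- vehicle replicate 1. The medians ran from 0.21 to 0.29 and from 0.23 to 0.28. In wild type mice they numbered 31, 24 (compared groups alone) to 38 (array weights), and 27 to 36 with 1 mouse left out, with medians from 0.28 to 0.34 and from 0.28 to 0.35. A further quantile normalisation gave 1 member lower with LPS in wild type mice. Across the settings 21.3% (no filter on low values) to 41.3% (array weights) of all tested genes were higher with LPS in MCAD-/- mice. In wild type mice the same settings gave the ends of the range, 22.8% and 42.5%.

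With the replicate number as a block, 26 and 31 members were higher with LPS and no named result or count changed its call. The deviations of mice with 1 number correlated between -0.12 and 0.28. Mice of different numbers were not compared in this way, so these values cannot settle whether the numbers pair the mice.

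Between genotypes under vehicle, array weights gave 12 members higher (median 0.11), where they called 19.3% of all tested genes higher, the compared groups alone 1, the 64 unit filter 1, which omits Rps25, and the mean of probe sets 1 lower. Under LPS the mean of probe sets gave 2 lower, and with 1 mouse left out 1 to 2 were higher, 2 without MCAD-/- LPS replicate 4, wild type LPS replicate 1 or wild type LPS replicate 2. Rps6 was past the threshold between genotypes under all 30, with the mean of probe sets at 0.80 under LPS and 0.86 under vehicle.

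Averaging the probe sets of a gene turned the log2 value of Rpl22 with LPS in MCAD-/- mice to -0.045 and those of Rpl7l1 between genotypes to -0.27 under LPS and -0.32 under vehicle. It joins the probe sets that differ above. Of 32 named results past the threshold 23 stayed so in every setting that tested the gene. These include the results of Rps25, which passed the filter mainly through the treated mice and was not tested in every setting. Rps4x in MCAD-/- mice lost its call under 8 settings (adjusted p up to 0.335), Rpsa in MCAD-/- mice under 5 (up to 0.904) and Rps27l in MCAD-/- mice under 4 (up to 0.0684). The mean of probe sets also ended the calls of Rps9 in both genotypes (0.631 and 0.0726), Rps20 in MCAD-/- mice (0.0923) and Rps4x and Rpl22 in wild type mice (0.0751 and 0.233), the last also lost with the compared groups alone. Of 68 named results not past the threshold, 14 passed it in some setting. Rpl22l1 did so between genotypes under vehicle in 3 settings (lowest adjusted p 0.00378) and under LPS in 2 (0.0354). With LPS in wild type mice it did so in 4 (0.0174). The causes were not tested. Centring the arrays on their median moved the median of all genes with LPS to 0.17 and 0.22, and quantile normalisation to 0.08 and 0.09. Changes of about 1.2-fold, as most here, lie near what 5 mice per group can show, and dim members (Rps25, Rpl39, Rps27) are limited by signal over background.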
